A study of Homo sapiens with 23 samples.

Results

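The annexin genes are described here, with the near absence of *ANXA10* RNA in 3 of 4 lines of colorectal carcinoma cells that lack Argonaute genes. The genes are the 10 annexins *ANXA10*, *ANXA1*, *ANXA2*, *ANXA3*, *ANXA4*, *ANXA5*, *ANXA6*, *ANXA7*, *ANXA11* and *ANXA13*, of 57875 genes listed per sample. They were chosen on the values of *ANXA10* in these samples, so that its levels are given as a description with no test, and it enters none of the counts of called genes. The other 9 annexins were tested. All 10 passed the filter on low counts, which 22842 genes passed.

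RNA was sequenced from HCT116 cells, an established human colorectal carcinoma line, in 3 replicates for each of 5 genotypes. These were wild-type cells and cells with a knockout of *AGO1*, of *AGO2*, of *AGO1* and *AGO2* together (the double knockout, *AGO1/2*), or of *AGO1*, *AGO2* and *AGO3* (the triple knockout, *AGO1/2/3*), which all share the HCT116 parent. Every sample was grown in McCoy's 5A medium with fetal bovine serum at passages 12 to 18. The authors deposited estimated counts, 1 value per gene and sample, and the counts of a sample added up to between 27709971 and 45271146. Each knockout is represented by a single line, so that the line and the genotype cannot be told apart. A quasi mode of quantification is named in the file headers of the *AGO2* knockout line and in those of no other line, so that there the genotype cannot be told apart from the mode. Replicates are labelled as separate samples of a line. The p-values rest on the spread between replicates, estimated over all 5 lines together unless stated otherwise. Levels are given as CPM, which are counts relative to the total of the sample after scaling by the TMM method, with the standard deviation (SD) over replicates.

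Annexins are proteins that bind acidic phospholipids of membranes when calcium is present, through a repeated core that the family shares. They organise membranes in exocytosis, endocytosis and the repair of the plasma membrane, and several bind small proteins of the S100 family. ANXA10 is a member found mainly in the stomach and in serrated lesions of the colon, and its calcium binding is reduced. Argonaute proteins carry microRNAs to their target RNAs, and the comparison of the knockout lines with wild-type cells asks which steady state RNA levels differ when they are lost.

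The *AGO* genes were examined first, as a check of the labels. *AGO1* RNA was at 138, 108 and 146 CPM in the wild-type samples, at 34.4, 32.1 and 39.4 in *AGO1* knockout cells, and at 160, 158 and 161 in *AGO2* knockout cells. It was at 35.4, 37.8 and 36.6 CPM in double knockout cells and at 35.5, 33.1 and 28.6 in triple knockout cells. The 9 samples labelled with a knockout of *AGO1* thus lay under the 6 others with no overlap. *AGO3* RNA was at 51.7, 57.4 and 46.0 CPM in triple knockout cells, under the 12 other samples, which ranged from 78.6 to 130. *AGO2* RNA was at 378, 459 and 381 CPM in wild-type cells, at 334, 363 and 350 in *AGO1* knockout cells and at 262, 314 and 283 in *AGO2* knockout cells. In double knockout cells it was at 320, 332 and 364 CPM, and in triple knockout cells at 517, 557 and 538. *AGO2* RNA was therefore not low in every line labelled with its knockout, and it was above the wild-type samples in triple knockout cells. A count over a whole gene does not show which bases were edited, so that the level of *AGO2* RNA does not check those labels. The study reports that these lines were verified by DNA sequencing and that its western blots found the targeted proteins absent. Neither of these was analysed here.

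By their summed level, markers of the cell type were those of an epithelial line. The summed level of 9 epithelial markers, 7 of which were tested, was 1334 to 2642 CPM over the 15 samples, with *KRT8* the most abundant. Not all of these 9 were plain. *VIL1* had 10 counts or fewer and *LGR5* 4 or fewer in every sample, and *KRT20* was at 1.59 CPM or less. The sum was 11.7 to 30.4 CPM for 5 fibroblast markers (most abundant *COL1A1*), 2.35 to 11.1 for 4 immune markers (*CD68*) and 1.47 to 3.20 for 3 endothelial markers (*PECAM1*). The T cell gene *CD3E* and the fibroblast gene *LUM* had 3 counts or fewer in every sample. These sums differed by line. The endothelial sum was 1.47 to 1.78 CPM in *AGO2* knockout cells, below the wild-type samples (2.28 to 2.52). *VWF*, of that list, was called lower there by edgeR (log2 fold change -1.25). The fibroblast sum was 23.3 to 30.4 CPM in wild-type and 11.7 to 19.1 in *AGO1*, *AGO2* and double knockout cells, and overlapped wild-type cells in the triple knockout. *COL1A1* was called lower in those first 3 knockout lines by edgeR (log2 fold changes -0.96, -1.17 and -1.03). *COL3A1*, of the same list, was called higher in *AGO1* (3.44, not by DESeq2) and triple knockout cells (3.10), at 27 counts or fewer. The immune sum was 2.35 to 5.66 CPM in wild-type and 8.50 to 11.1 in double knockout cells. *CD68* was called higher in double knockout cells (1.31). That call was lost without wild-type replicate 1 (0.92) or double knockout replicate 2 (1.15) or with only the 6 samples compared. In triple knockout cells the sum was 2.35 to 2.67 CPM and *CD68* was called lower (-1.09). This call was lost without wild-type replicate 2 (-0.97) or 3 (-0.77) or any triple knockout replicate (-0.97 to -1.19), or with only the 6 samples. Replicate 2 of the wild-type cells stood apart from the others of its line, with a median absolute log2 distance of 0.303 to them, whereas the value was between 0.108 and 0.251 in the other 14 samples. Counts of called annexins without it are given beside the main ones.

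*ANXA10* (ENSG00000109511) lies on chromosome 4 from 168092537 to 168187736 in GENCODE v44 on GRCh38. Its counts were 303, 362 and 409 in the wild-type samples and 1501, 1711 and 1313 in the *AGO1* knockout samples. They were 2, 1 and 2 in *AGO2* knockout cells, 2, 1 and 3 in double knockout cells and 2, 0 and 0 in triple knockout cells. *ANXA10* RNA was thus plain in all 6 samples of wild-type and *AGO1* knockout cells and at or near 0 in all 9 samples of the lines with a knockout of *AGO2*. On the scale of CPM the wild-type samples were at 9.48, 11.5 and 12.3 and the *AGO1* knockout samples at 46.7, 62.5 and 43.7. The means were 11.1 ± 1.46 and 51.0 ± 10.1 CPM (SD, n = 3 each), a ratio of 4.59 (4.31 when scaled by total counts alone), and the samples of the 2 lines did not overlap. A level of 0.0395 ± 0.0145 CPM was found in *AGO2* knockout cells, 0.0696 ± 0.0383 in double knockout cells and 0.0170 ± 0.0294 in triple knockout cells (SD, n = 3 each). Set in order, *AGO1* knockout cells stood above wild-type cells, and wild-type cells above the 3 other lines. These 3 lines do not differ beyond their spread, since each sample holds 3 counts or fewer. A library with 0 counts allows up to 3 counts, which is between 0.0671 and 0.110 CPM in these samples.

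The size of the *ANXA10* difference is limited by these few counts. The ratio of the summed scaled counts of wild-type cells to those of *AGO2* knockout cells was 284, with an exact 95% interval of 121 to 875. Against double knockout cells the ratio was 162 (74.2 to 443), and against triple knockout cells it was 541 (149 to 4476). The intervals of the 3 lines overlap. From *AGO1* knockout cells to double knockout cells, which differ in the knockout of *AGO2*, the ratio was 736 (338 to 2007). Intervals and floors cover counting error only. Set against 3 counts in every library, the wild-type mean was 157, 108 and 118 times the level in *AGO2*, double and triple knockout cells. The lncRNA ENSG00000248601 on the other strand, from 167946674 to 168113331, overlaps the start of *ANXA10* and had between 1 and 12 counts in every sample. The libraries were made with a kit that keeps the strand, but the strand used in counting is not stated for the files, and how reads were divided where the 2 genes overlap was not examined. Fewer cells with *ANXA10* RNA and less of it per cell cannot be told apart in these bulk samples, here and for the other genes.

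**Figure D1:**
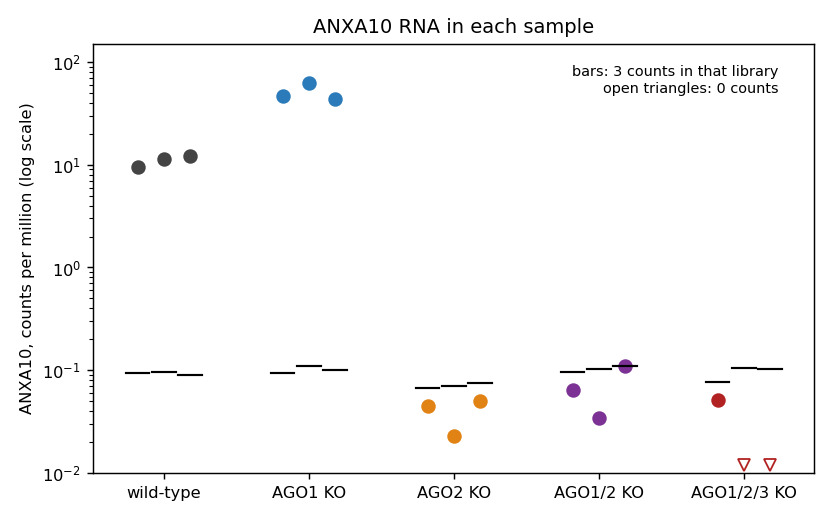
*ANXA10* RNA in each of the 15 samples, as CPM on a log axis, with 3 replicates per line as points, short bars at the level of 3 counts in that library and open triangles for 0 counts. Wild-type samples sit between 9.48 and 12.3 CPM and *AGO1* knockout samples between 43.7 and 62.5, while the 9 other samples hold 3 counts or fewer.

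The promoter of *ANXA10* differed in base composition from those of most annexins. RefSeq promoters on GRCh38.p14, from 250 bases before to 50 bases after a gene's start, matched 9 of the 10 annexins, with 13 promoters in all, and are shown because the members differ there. They were searched for the motif TATAAA on both strands (TTTATA on the other). It was found on the gene's own strand in 4 of the 13 promoters and on the other strand in 0. Over all 35116 promoters, 11.5% hold it on either strand, 7.33% on their own strand and 2.34% at 10 to 40 bases before the start. The stretches of 30 bases around it lie at chr4:168092496-168092525 (+) for *ANXA10*, chr9:73151822-73151851 (+) for *ANXA1*, chr15:60398000-60398029 (-) for *ANXA2* and chr10:80205852-80205881 (-) for *ANXA11*, and the capitals mark the motif:
ANXA10: ctgataactaagTATAAAtacagtatctca
ANXA1: cctttaaaatccTATAAAatcagaagccca
ANXA2: ggatgtggcgggTATAAAagccccacccag
ANXA11: accgagtgttgcTATAAAggaaatgcgttt
The motif begins 29 bases before the start in *ANXA10*, 31 in *ANXA1*, 31 in *ANXA2* and 61 in *ANXA11*. The promoters of *ANXA10* and *ANXA1* hold 0 CpG dinucleotides, with a G and C content of 32.7% and 37.7%. That of *ANXA2* holds 32 with a content of 76.0%, and the median of all promoters is 14 CpG dinucleotides and 58.7%. *ANXA1* shares the motif and the low CpG number with *ANXA10*. A match of letters is a description, not a site that was shown to be used.

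The genes next to *ANXA10* on chromosome 4 did not share its loss as a block. *SPOCK3* and *TLL1*, on the same side of it, were called lower in the same 3 lines, and no other neighbour was. The nearest protein-coding genes are *DDX60*, a helicase induced by interferon, 29 kb after it, and *SPOCK3*, a secreted proteoglycan, 858 kb before it. *DDX60* was at 19.0, 14.6 and 17.8 CPM in wild-type cells, at 19.1, 19.7 and 19.8 in *AGO2* knockout cells, at 37.2, 39.4 and 18.3 in double knockout cells and at 20.1, 23.6 and 22.2 in triple knockout cells. In the 3 lines where *ANXA10* was at the floor no sample of *DDX60* was below 18.3 CPM, and 2 of the double knockout samples were the highest. It was called higher in double knockout cells (log2 fold change 0.89), but not without replicate 2 of that line (0.69) or with only the 6 samples compared. *SPOCK3* was lower where *ANXA10* was at the floor and higher in *AGO1* knockout cells, with a mean of 1.65 ± 0.425 CPM for wild-type, 3.77 ± 1.08 for *AGO1* knockout and 0.174 ± 0.0562 for *AGO2* knockout cells (SD, n = 3 each). Its log2 fold change against wild-type cells was 1.19 in *AGO1*, -3.23 in *AGO2*, -2.41 in double and -1.49 in triple knockout cells, with adjusted p of 0.00900, 5.34e-05, 0.000183 and 0.000943 (the quasi-likelihood test of edgeR, Benjamini-Hochberg adjusted). In each of these lines all 3 samples lay on that side of the wild-type samples. The call in *AGO1* knockout cells was lost when only those 6 samples were fitted, as was that of *DDX60L* (0.50) there. *PALLD*, which organises actin and lies 309 kb after *ANXA10*, moved otherwise, with log2 fold changes of 1.23 in *AGO1* and 1.46 in *AGO2* knockout cells (adjusted p 6.1e-05 and 1.56e-05, the quasi-likelihood test of edgeR, Benjamini-Hochberg adjusted). Of the 10 neighbours, 5 on each side, 1 was called higher and 3 lower in *AGO2* knockout cells, where 8.55% of all genes tested were higher and 10.8% lower. The 1 higher became 2 without replicate 3 of wild-type, *AGO1* knockout or double knockout cells or *AGO2* knockout replicate 1. With no filter on low counts it became 3. The lower ones in *AGO2* knockout cells were *SPOCK3*, *TLL1* and *CPE*, all on the same side of *ANXA10*. *TLL1*, 1988 kb away, lost its call without wild-type replicate 1 (log2 fold change -0.96) or 3 (-0.83) or *AGO2* knockout replicate 1 (-1.05), 2 (-0.82) or 3 (-1.13). *CPE*, 2594 kb away, lost its call without wild-type replicate 2 (-0.53) or *AGO2* knockout replicate 2 (-0.58) or 3 (-0.79). With only the 6 samples both lost their calls, as did *CPE* with the replicate block and *TLL1* by DESeq2. Of the 10 neighbours 3 were called in *AGO1* knockout cells, all higher, beside 3.17% of all genes higher and 5.50% lower. Double knockout cells had 2 higher and 2 lower, beside 8.37% and 8.35%. With 1 sample left out, each of these 2 counts was 1 to 3. In triple knockout cells 4 were higher and 3 lower, where 20.3% of all genes were higher and 19.8% lower. There *CPE* (0.12) was not called, *MSMO1* on its side was called higher (1.56), and *DDX60L* on the other side was called lower (-0.67). *PALLD* was among the 4, but its call in triple knockout cells (0.37) was lost in 13 of 15 fits that left out 1 sample, all but those without wild-type replicate 3 or *AGO1* knockout replicate 1, at 0.18 to 0.40. *TLL1* in double knockout cells (-1.29) lost its call without replicate 1 (-1.24) or 2 (-1.11) of that line. In triple knockout cells *TLL1* was called lower (-1.29, adjusted p = 0.00514 by edgeR) and kept that call with each sample left out. Its *AGO1* knockout samples lay above the wild-type ones (0.86), where it was called only with the replicate block.

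**Figure D2:**
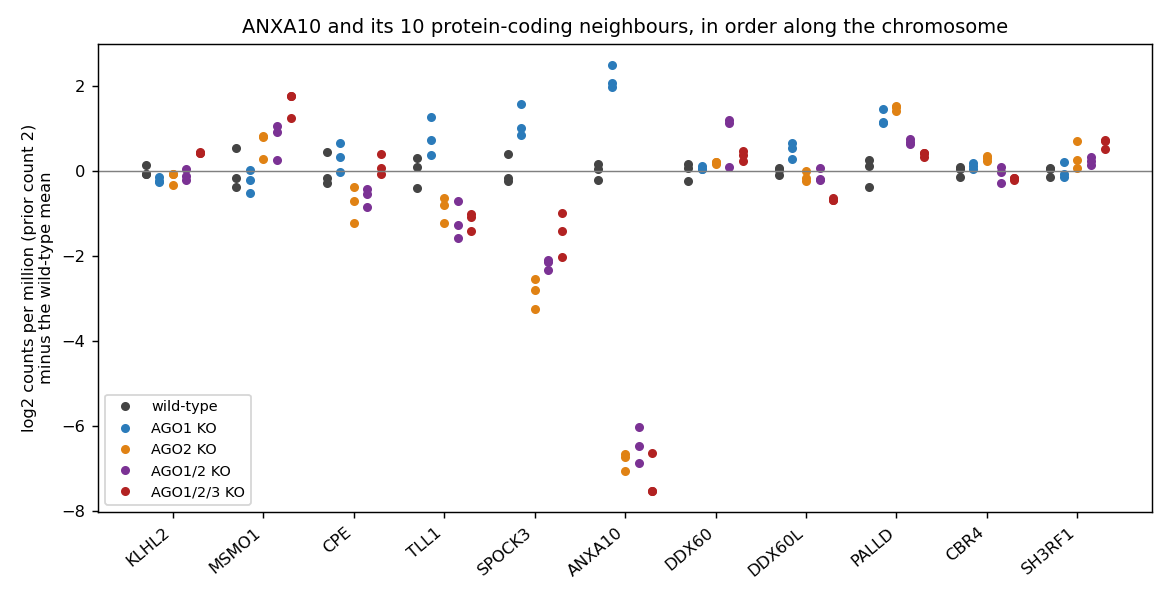
Log2 level of *ANXA10* and of the 5 nearest protein-coding genes on each side, minus the mean of the wild-type samples, for each of the 15 samples in the order of the genes on chromosome 4. *ANXA10* lies between -6.02 and -7.53 in the 9 samples with a knockout of *AGO2*, whereas *SPOCK3* lies between -0.98 and -3.25 and *DDX60* between 0.10 and 1.21 in the same samples.

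Few genes had the pattern of *ANXA10*. Of the 14929 genes with at least 30 counts in each of the 6 wild-type and *AGO1* knockout samples, 2 had 3 counts or fewer in each of the 9 other samples, and these were *ANXA10* itself and *PODXL2*. *PODXL2*, a sialomucin of the podocalyxin family on chromosome 3, had 45, 58 and 54 counts in the wild-type samples, 51, 48 and 88 in those of *AGO1* knockout cells and 0 to 2 in each of the others. Its levels in wild-type and *AGO1* knockout cells overlapped, unlike those of *ANXA10*. With at most 10 counts in the 9 samples and at least 100 in the 6, *ANXA10* was the 1 gene found. By Pearson's r of log2 CPM over the 15 samples, which share 5 lines, the genes most like it were *TIMM17B* (r = 0.991), *PODXL2* (0.980), *SPATA18* (0.979), the lncRNA ENSG00000235070 (0.977) and *TTN* (0.968). These lie on chromosomes X, 3, 4, 2 and 2, and 49 genes had r above 0.9. *SPATA18* was at 0.344, 0.414 and 0.331 CPM in wild-type cells, at 2.08, 1.90 and 1.97 in *AGO1* knockout cells and at 0 in 8 of the other 9 samples. *TIMM17B* was at 9.58 ± 1.05 CPM for wild-type, 12.6 ± 0.855 for *AGO1* knockout and 4.32 ± 0.160 for *AGO2* knockout cells (SD, n = 3 each), so that a high r here covers changes of very different size. Among the other annexins r with *ANXA10* ranged from -0.87 (*ANXA11*) to 0.60 (*ANXA13*) over the same 15 samples.

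Levels of different annexins were compared per kilobase of merged exons, as each gene's share of the summed level of 13 annexin genes. In wild-type cells *ANXA1* held 29.9% ± 5.60 of the total, *ANXA2* 23.2% ± 4.77 and *ANXA5* 18.5% ± 0.863 (SD, n = 3 each). The shares of *ANXA1* and *ANXA2* there do not differ beyond their spread, and *ANXA2* comes first, at 35.7%, when the longest transcript sets the length. *ANXA10* held 1.79% ± 0.260 of the total in wild-type samples and 8.46% ± 1.07 among *AGO1* knockout samples, where it stood next in the family after *ANXA1*, *ANXA2* and *ANXA5*. There it did not differ beyond the spread from *ANXA7* (7.23% ± 0.594) and *ANXA3* (7.09% ± 0.726), and with the longest transcript as length it held 5.26%, below *ANXA3* with 5.78%. In the 3 other lines it held 0.00707%, 0.00904% and 0.00180%, and was last of the 13. *ANXA2* held 30.4% ± 0.637 in triple knockout cells, and *ANXA6* held 3.68% ± 1.30 in wild-type cells and 7.59% ± 0.305 in triple knockout cells. The summed level of the family was 338 ± 15.9 CPM per kilobase in wild-type cells, 327 ± 32.0 in *AGO1* and 309 ± 24.3 in *AGO2* knockout cells. It was 413 ± 28.7 in double and 563 ± 48.4 in triple knockout cells (SD, n = 3 each). The family total was thus highest in the lines with several knockouts. *ANXA10* was at the floor there and also in *AGO2* knockout cells, where the mean total was not above that of wild-type cells.

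**Figure D3:**
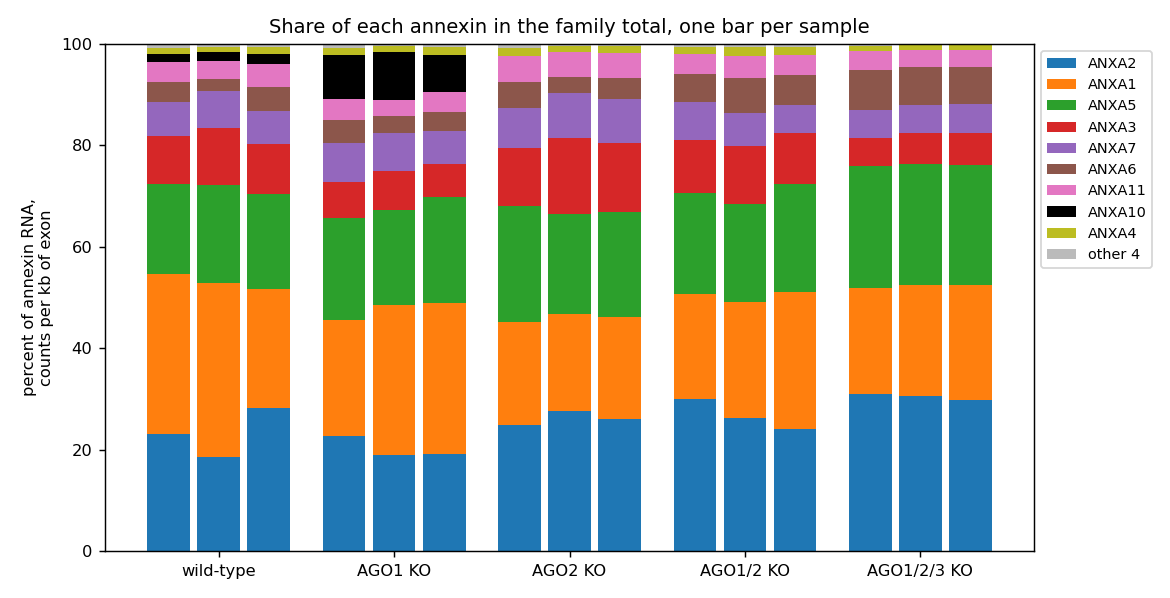
Share of the annexins in the summed annexin level (CPM per kilobase of merged exons), in percent, with a bar per sample and 3 samples per line. *ANXA8*, *ANXA8L1*, *ANXA9* and *ANXA13* are drawn together. By the mean of 3 replicates, *ANXA1* leads with 29.9% in wild-type cells and *ANXA2* with 30.4% in triple knockout cells. The mean of *ANXA10* reaches 8.46% in *AGO1* knockout cells. With the longest transcript as length *ANXA2* leads in every line.

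*ANXA2* and 2 of its partners were higher in the lines with several knockouts than in wild-type cells. *ANXA2* (ENSG00000182718, chromosome 15, 60347134 to 60402883) joins membranes to actin and forms a complex with S100A10. It was at 891, 764 and 1056 CPM in wild-type cells, at 774, 788 and 721 in *AGO1* knockout cells and at 809, 1053 and 947 in *AGO2* knockout cells. In double knockout cells it was at 1354, 1233 and 1234 CPM, and in triple knockout cells at 1843, 1981 and 2101. The samples of the lines with 1 knockout overlapped those of wild-type cells, and those of the lines with 2 or 3 knockouts lay above all of them. Against wild-type cells its log2 fold change was 0.50 (standard error, SE, 0.12, adjusted p = 0.0113 by the quasi-likelihood test of edgeR, Benjamini-Hochberg adjusted) in double knockout cells. It was 1.13 (SE 0.12, adjusted p = 3.85e-06, the same edgeR test) in triple knockout cells. The first call was lost without wild-type replicate 2 (0.37, adjusted p = 0.0518 by edgeR) or double knockout replicate 1 (0.43, adjusted p = 0.0570 by edgeR), and in a fit of only the 6 samples compared. *S100A10* (ENSG00000197747) encodes the S100 protein that binds ANXA2. It was at 91.6, 71.8 and 128 CPM in wild-type cells, at 271, 222 and 248 in double knockout cells and at 358, 383 and 431 in triple knockout cells. No sample of these 2 knockout lines overlapped the wild-type samples. Its log2 fold changes were 1.34 (SE 0.17, adjusted p = 9.64e-05) and 2.01 (SE 0.18, adjusted p = 4.38e-07) by the quasi-likelihood test of edgeR, Benjamini-Hochberg adjusted. *AHNAK* encodes a very large scaffold protein that the ANXA2 and S100A10 complex binds. It was at 1686, 1825 and 1870 CPM in wild-type cells, at 3434, 4135 and 4601 in double knockout cells and at 5132, 5430 and 5880 in triple knockout cells. The lines were again apart, with log2 fold changes of 1.18 (SE 0.13, adjusted p = 2.09e-05) and 1.61 (SE 0.13, adjusted p = 2.01e-07) by the same edgeR test. Levels of *ANXA2* include reads that could come from near-identical processed pseudogenes. *ANXA2P1*, *ANXA2P2* and *ANXA2P3* together had at most 30 counts in a sample, against 21591 or more for *ANXA2*, and the calls of *ANXA2* kept their side of the threshold when the 4 were summed.

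*ANXA5* and *ANXA6* followed the same course. *ANXA5* (ENSG00000164111, chromosome 4, 121667946 to 121696995), which binds phosphatidylserine and is used to mark dying cells, was at 171, 200 and 178 CPM in wild-type cells. It was at 227, 229 and 277 CPM in double knockout cells and at 364, 393 and 424 in triple knockout cells, with no overlap between these lines and wild-type cells. In *AGO1* knockout cells (173, 196 and 199 CPM) and *AGO2* knockout cells (188, 189 and 190) it overlapped wild-type cells. Its log2 fold change was 0.42 (SE 0.10, adjusted p = 0.0114) in double and 1.10 (SE 0.10, adjusted p = 8.79e-07) in triple knockout cells by the quasi-likelihood test of edgeR, Benjamini-Hochberg adjusted. The first was not called without wild-type replicate 1 (0.36) or double knockout replicate 3 (0.31), or with only the 6 samples. *ANXA6* (ENSG00000197043, chromosome 5, 151100706 to 151157815), which has a doubled annexin core and acts in endocytosis, was at 73.3, 43.9 and 85.8 CPM in wild-type cells. It was at 118, 151 and 142 CPM in double knockout cells and at 225, 230 and 249 in triple knockout cells. Wild-type replicate 2 was the lowest of the 15 samples, and both of these knockout lines lay above all wild-type samples. The log2 fold changes were 1.02 (SE 0.19, adjusted p = 0.00149) and 1.79 (SE 0.19, adjusted p = 2.61e-06), the latter the largest of the 9 tested annexins in any comparison with wild-type cells (the quasi-likelihood test of edgeR, Benjamini-Hochberg adjusted).

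**Figure D4:**
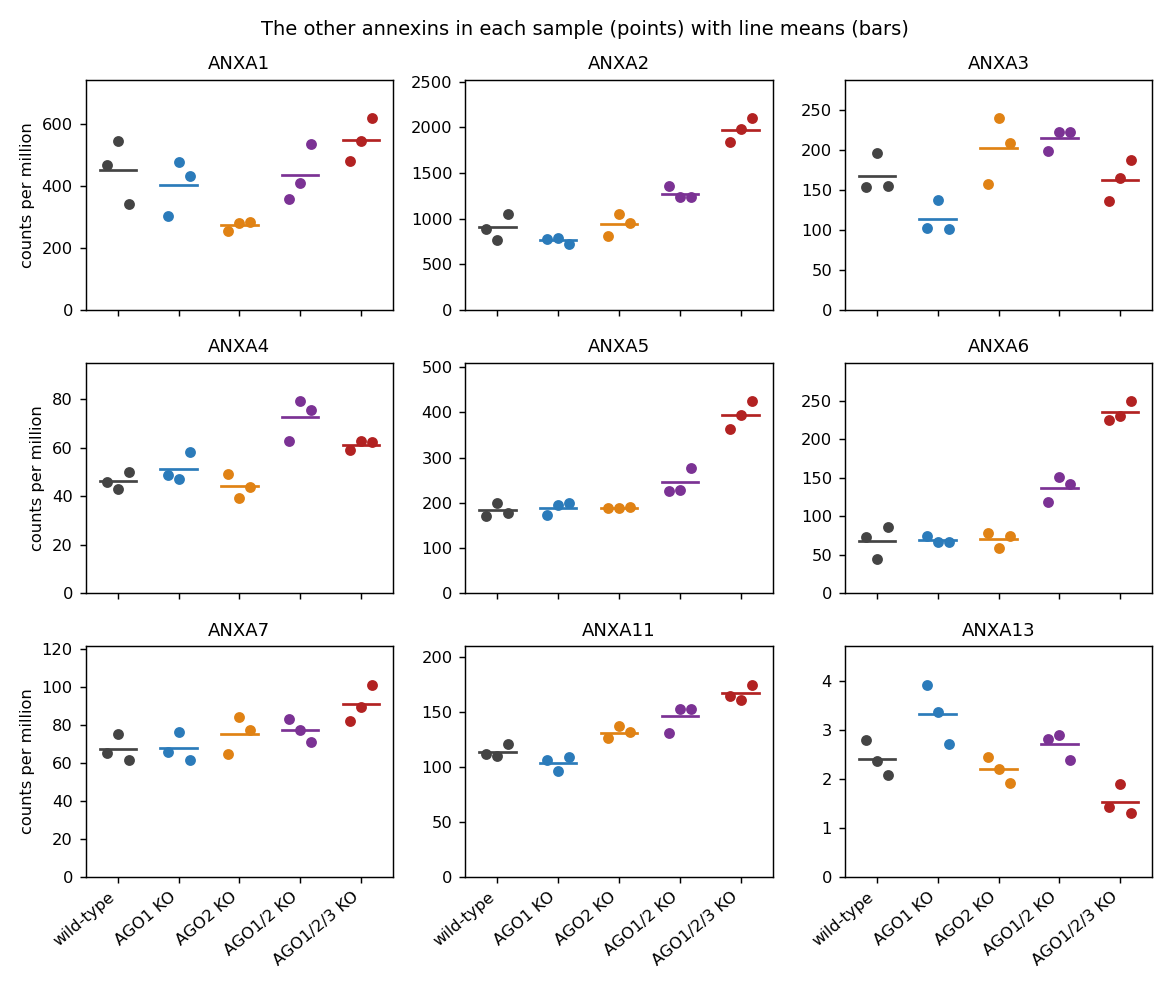
CPM of the 9 tested annexins in each of the 15 samples, by line (*AGO1/2* is the double and *AGO1/2/3* the triple knockout), with 3 replicates per line as points and the line's mean as a bar. *ANXA2*, *ANXA5* and *ANXA6* lie highest in triple knockout cells (1843 to 2101, 364 to 424 and 225 to 249 CPM), and *ANXA1* lies lowest in *AGO2* knockout cells (256 to 283 CPM).

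*ANXA4*, *ANXA7* and *ANXA11* were called with log2 fold changes of 0.65 or less against wild-type cells. *ANXA4*, an annexin of epithelial cells on chromosome 2, was at 45.9, 43.1 and 49.8 CPM in wild-type cells, at 62.8, 79.0 and 75.6 in double and at 58.9, 62.5 and 62.4 in triple knockout cells. Both of these lines lay above wild-type cells, and the triple knockout did not lie above the double one. Its log2 fold changes were 0.65 (adjusted p = 0.00127) and 0.40 (adjusted p = 0.0111) by the quasi-likelihood test of edgeR, Benjamini-Hochberg adjusted. The latter was not called without wild-type replicate 2 (0.33) or triple knockout replicate 3 (0.35), or when scaled by total counts (0.26). *ANXA11*, which links RNA granules to lysosomes, was at 112, 110 and 121 CPM in wild-type cells, at 131, 153 and 153 in double and at 165, 161 and 175 in triple knockout cells. There too the 3 lines did not overlap. *AGO2* knockout samples, at 126, 137 and 132 CPM, also lay above the wild-type ones, but *ANXA11* was not called in that line. The log2 fold changes of *ANXA11* were 0.35 (adjusted p = 0.0138) and 0.55 (adjusted p = 0.000176) by the same edgeR test. The first call was lost without wild-type replicate 1 (0.33), double knockout replicate 2 (0.30) or 3 (0.31), with no filter on low counts, and with only the 6 samples. *ANXA7*, which was first found through its part in the aggregation of chromaffin granules, was at 65.0, 75.1 and 61.2 CPM in wild-type cells and at 81.7, 89.5 and 101 in triple knockout cells, a log2 fold change of 0.43 (adjusted p = 0.0116, the same edgeR test). It was not called without wild-type replicate 1 (0.39) or 3 (0.35), without triple knockout replicate 3 (0.31), or when scaled by total counts (0.29).

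Of the 9 annexins, *ANXA1*, *ANXA3* and *ANXA13* were called lower in a line against wild-type cells. *ANXA1* (ENSG00000135046, chromosome 9, 73151865 to 73170393), which dampens inflammation through formyl peptide receptors, was at 469, 545 and 342 CPM in wild-type cells and at 256, 281 and 283 in *AGO2* knockout cells. It was at 303, 476 and 433 CPM in *AGO1*, at 359, 411 and 535 in double and at 482, 546 and 619 in triple knockout cells. *AGO2* knockout samples lay below all wild-type samples, and the other lines overlapped wild-type cells. The log2 fold change in *AGO2* knockout cells was -0.72 (SE 0.19, adjusted p = 0.0196 by the quasi-likelihood test of edgeR, Benjamini-Hochberg adjusted). It was not called without wild-type replicate 2 (-0.59, adjusted p = 0.0758 by edgeR) or *AGO2* knockout replicate 2 (-0.76) or 3 (-0.77). *ANXA3*, which is known from tumours and from neutrophils, was at 154, 196 and 155 CPM in wild-type samples and at 103, 138 and 101 in *AGO1* knockout samples. In double knockout cells it was at 199, 223 and 223 CPM, above the wild-type samples, but was not called. All 3 *AGO1* knockout samples lay below the wild-type ones, with a log2 fold change of -0.56 (SE 0.17, adjusted p = 0.0486, the same edgeR test). This call was at the threshold and was lost in 11 of the 15 fits that left out 1 sample. The values then lay between -0.44 (without wild-type replicate 2) and -0.62 (without wild-type replicate 3), and the others were wild-type replicate 1, *AGO1* knockout replicates 1 and 3, *AGO2* knockout replicate 3, all double knockout replicates and triple knockout replicates 2 and 3. *ANXA13*, the annexin of intestinal and kidney epithelium on chromosome 8, was at 2.79, 2.36 and 2.08 CPM in wild-type cells and at 1.43, 1.89 and 1.29 in triple knockout cells. These did not overlap, with a log2 fold change of -0.65 (SE 0.20, adjusted p = 0.0145, the same edgeR test), which was not called without wild-type replicate 1 (-0.56) or triple knockout replicate 3 (-0.59). The 102 genes tested between 110 and 140 Mb of chromosome 8, where *ANXA13* lies, were at a median of -0.51 (log2) in the same comparison and at -0.53 in double knockout cells, where *ANXA13* was at 0.17. These bounds were chosen after the values were seen, and the part of the region in the level of *ANXA13* was not tested.

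The remaining annexin genes had few counts. *ANXA9* had 76, 28 and 59 counts in wild-type cells and 16, 16 and 24 in triple knockout cells, and the latter lay below all wild-type samples. *ANXA8* and *ANXA8L1* are near-identical copies on chromosome 10, between which reads are assigned with uncertainty. They had 19 to 24 and 10 to 18 counts in wild-type cells and 26 to 54 and 24 to 28 in triple knockout cells. *ANXA9* was called lower in triple knockout cells (log2 fold change -1.52), and *ANXA8* was called higher there (0.90, edgeR's quasi-likelihood test at an adjusted p of 0.05 or less). *ANXA8L1* was called higher in double knockout cells (0.96), though not without wild-type replicate 1 (0.75) or double knockout replicate 1 (0.91) or 2 (0.98), by DESeq2 or with only the 6 samples. It was also called in triple knockout cells (0.81), though not without wild-type replicate 1 (0.58) or triple knockout replicate 2 (0.64) or 3 (0.76), nor by DESeq2, with total counts, with no filter on low counts or with only the 6 samples.

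Calls were also counted over the 9 tested annexins, beside the shares of all genes tested. In *AGO1* knockout cells 0 were called higher and 1 lower (*ANXA3*) by edgeR, where 3.17% of all genes tested were higher and 5.50% lower. At an unadjusted p under 0.05, 1 was higher, and DESeq2 called 0 higher and 1 lower. In *AGO2* knockout cells, against 8.55% and 10.8% of all genes, edgeR called 0 higher and 1 lower (*ANXA1*), with 1 higher at an unadjusted p under 0.05, and DESeq2 called 0 higher and 1 lower. In double knockout cells 5 were higher (*ANXA2*, *ANXA4*, *ANXA5*, *ANXA6* and *ANXA11*) and 0 lower by edgeR, where 8.37% of all genes were higher and 8.35% lower. At an unadjusted p under 0.05, 0 were lower, as by DESeq2. In triple knockout cells 6 were higher, now with *ANXA7*, and 1 lower (*ANXA13*), where 20.3% of all genes were higher and 19.8% lower. Without wild-type replicate 2 the counts were 0 and 0 in *AGO1*, 0 and 0 in *AGO2*, 4 and 0 in double and 5 and 1 in triple knockout cells. Leaving out wild-type replicate 1 or double knockout replicate 3 took the count in double knockout cells from 5 to 3. The 1 called lower in triple knockout cells was lost (0 left) without wild-type replicate 1 or triple knockout replicate 3. In *AGO1* knockout cells the 1 called lower was lost in 11 of 15 such fits and in *AGO2* knockout cells in 3, those named above for *ANXA3* and *ANXA1*. The members were chosen on the contrasts of the last 3 lines with wild-type cells, and nothing is read from those shares of all genes. The shares of all genes also rest on single samples. In *AGO2* knockout cells 1952 higher and 2456 lower genes became 389 and 1140 without replicate 2 of that line, 506 and 1322 without its replicate 3, and 494 and 1380 without wild-type replicate 2. The count higher there was 1074 without wild-type replicate 1, 1253 without double knockout replicate 2, and 1295 or 1113 without triple knockout replicate 1 or 2. In *AGO1* knockout cells 725 higher and 1257 lower became 389 and 575 without replicate 2 of that line, and 648 were lower without its replicate 1. In double knockout cells 1913 higher became 1204 without their replicate 2. These 4 comparisons share the wild-type samples. The median log2 fold change of the 9 was 0.01, 0.05, 0.35 and 0.43 in *AGO1*, *AGO2*, double and triple knockout cells, beside -0.01, -0.02, 0.01 and -0.01 over all genes tested. With total counts alone the medians of the 9 became -0.08, -0.07, 0.26 and 0.29, so that the first 2 changed sign, and those of all genes -0.10, -0.14, -0.08 and -0.15. Under that scaling the split of all genes into higher and lower went from 725 and 1257 to 511 and 1981 in *AGO1*, and from 1952 and 2456 to 737 and 3588 in *AGO2* knockout cells. It went from 1913 and 1907 to 1395 and 2596 in double knockout cells, and from 4644 and 4522 to 3461 and 5961 in triple knockout cells.

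**Figure D5:**
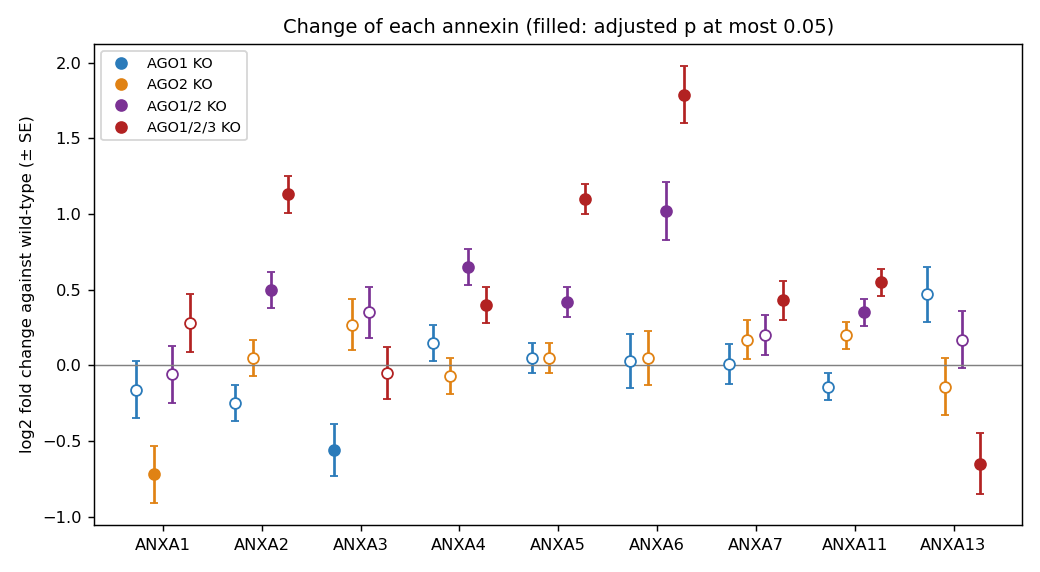
Log2 fold change of the 9 tested annexins against wild-type cells in each knockout line, with SEs from edgeR's fit of all 15 samples, 3 per line. In triple knockout cells *ANXA6* (1.79), *ANXA2* (1.13) and *ANXA5* (1.10) have the largest increases, and *ANXA13* (-0.65) lies below 0.

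Knockout lines were also compared with each other, which leaves the wild-type samples out of the contrast. Each step still compares 2 lines, and that from *AGO2* to double knockout cells also 2 modes of quantification. From *AGO1* to double knockout cells 6 of the 9 annexins were called higher and 0 lower by edgeR, where 11.5% of all genes tested were higher and 7.95% lower. The log2 fold changes of *ANXA6*, *ANXA3* and *ANXA2* were 0.99, 0.92 and 0.74, and that of *ANXA5* (0.37) was not called without *AGO1* knockout replicate 1 (0.31) or 2 (0.38) or double knockout replicate 3 (0.25), with no filter on low counts or with only the 6 samples. From *AGO2* to double knockout cells 5 were higher and 0 lower, where the shares of all genes were 12.8% and 11.1%. Over all genes that step went from 2923 higher and 2543 lower to 1903 and 1341 without double knockout replicate 2, and to 1907 and 1496 without *AGO2* knockout replicate 2. Without *AGO2* knockout replicate 3, 1561 were lower. The count of annexins was 3 without any of the *AGO2* knockout replicates 1, 2 or 3 or without double knockout replicate 3. *ANXA6* (0.97) and *ANXA4* (0.72) kept their calls with each sample left out. *ANXA1* (0.67) lost its call without *AGO2* knockout replicate 1 (0.64), 2 (0.69) or 3 (0.70) or double knockout replicate 3 (0.47). *ANXA2* (0.44) lost it without *AGO2* knockout replicate 1 (0.37) or double knockout replicate 1 (0.40), and *ANXA5* (0.37) without *AGO2* knockout replicate 2 (0.37) or 3 (0.38) or double knockout replicate 3 (0.25), or with no filter on low counts. Neither step had an annexin called lower by DESeq2, and 0 were lower at an unadjusted p under 0.05. From double to triple knockout cells 3 were higher, namely *ANXA6* (0.78), *ANXA5* (0.69) and *ANXA2* (0.63), and 1 was lower, *ANXA13* (-0.82). Of all genes tested, 11.9% were higher and 10.0% lower in that step. The medians of the 9 in the 3 steps were 0.49, 0.37 and 0.24, beside 0.01, 0.04 and -0.01 over all genes.

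The difference on loss of *AGO2* was also compared between backgrounds, a contrast chosen after the values were seen. It sets the change from *AGO1* to double knockout cells against the change from wild-type to *AGO2* knockout cells. The signed difference was called above 0 for *ANXA1*, *ANXA2*, *ANXA4* and *ANXA6*, 4 of the 9 annexins, and below 0 for 0, where 11.5% of all genes tested were called higher and 8.26% lower by edgeR. At an unadjusted p under 0.05, 7 were above 0 and 0 below, and DESeq2 called 4 and 0. For *ANXA1* the change was -0.72 in the wild-type background and 0.11, not called, in the other. Without wild-type replicate 2 the count was 3, without double knockout replicate 2 or 3 it was 1, and without *AGO1* knockout replicate 1 or *AGO2* knockout replicate 2 or 3 it was 2. With total counts alone it was 7, and the split of all genes went from 2618 higher and 1887 lower to 3464 and 1230. The count of all genes lower was 1163 without double knockout replicate 2 and 1237 without *AGO2* knockout replicate 2. The median of the 9 was 0.57, beside 0.05 over all genes.

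A list of 24 genes whose products bind or act with annexins, 21 of which were tested, was followed across the lines. In *AGO1* knockout cells 2 were called, both lower, beside 3.17% higher and 5.50% lower among all genes tested. For *AGO2* knockout cells the counts were 1 higher and 5 lower, beside 8.55% and 10.8% of all genes. In double knockout cells 8 were higher and 2 lower, beside 8.37% and 8.35%, and in triple knockout cells 7 were higher and 5 lower, beside 20.3% and 19.8%. Some of these counts rest on single samples. In *AGO2* knockout cells they became 0 higher and 2 lower without replicate 2 of that line, 0 and 3 without its replicate 3 or wild-type replicate 2, and 0 and 4 without its replicate 1. There *PLAU* (-1.38) lost its call in 10 of 15 fits that left out 1 sample, at -0.58 (without wild-type replicate 2) to -1.41 (without *AGO2* knockout replicate 1), and by DESeq2. The other 8 were those without *AGO1* knockout replicate 2, *AGO2* knockout replicate 2 or 3, double knockout replicate 2 or 3, or any triple knockout replicate. With 1 sample left out, the count lower in *AGO1* knockout cells was 1 to 5. For double knockout cells 6 to 9 were then higher and 1 to 3 lower, and in triple knockout cells 6 to 7 were higher and 5 to 6 lower. With only the 6 samples compared, the counts were 0 higher and 1 lower in *AGO1* and 0 and 2 in *AGO2* knockout cells. They were then 4 and 1 in double and 7 and 5 in triple knockout cells. The medians of the list in these 4 comparisons were -0.13, -0.02, 0.42 and -0.09 in the main fit. The list thus did not move one way in triple knockout cells. *S100A4*, an S100 protein linked to cell motility, was at 103, 57.5 and 111 CPM in wild-type cells, at 14.7, 14.7 and 20.7 in *AGO1* knockout cells and at 135, 193 and 224 in double knockout cells. Of the partners it decreased most in *AGO1* knockout cells, by a log2 fold change of -2.44 (SE 0.25, adjusted p = 2.97e-05 by the quasi-likelihood test of edgeR, Benjamini-Hochberg adjusted). *TRIM72*, which acts in membrane repair, was at 43.6, 47.4 and 48.6 CPM in wild-type cells, at 54.9, 53.4 and 47.5 in double knockout cells and at 11.5, 9.07 and 8.50 in triple knockout cells. It was thus low in the triple knockout, with a log2 fold change of -2.26 (SE 0.12, adjusted p = 4.09e-09, the same edgeR test), and the other lines were not called. *PLA2G4A*, the cytosolic phospholipase that annexins can inhibit, was at 12.9, 5.48 and 16.4 CPM in wild-type cells and at 2.56 to 3.34 in double and 2.77 to 3.72 in triple knockout cells. These samples lay below wild-type cells, with log2 fold changes of -1.99 and -1.90 (adjusted p 0.000258 and 8.2e-05, the same edgeR test). Among genes of the plasmin system, which ANXA2 and S100A10 assist at the cell surface, *PLAT* had a log2 fold change of 1.87 and the receptor gene *PLAUR* of -0.80 in triple knockout cells (adjusted p 5.56e-05 and 0.0122, the same edgeR test). *CAPN2*, a calpain that cleaves annexins in membrane repair, was called there with 1.14 and *S100A11*, which binds ANXA1, with 0.84, whereas the penta-EF-hand genes *SRI* (-0.66) and *PDCD6* (-0.45), whose proteins bind annexins, were called lower.

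*ANXA10* is a marker of gastric differentiation, and 18 genes of gastric type or of serrated lesions were examined beside it. Of these, 4 passed the filter on low counts (*VSIG1*, *GATA6*, *HNF4A* and *CDX2*). A further 7 had 3 counts or fewer in every sample, among them the gastric genes *MUC5AC*, *TFF1* and *GKN1*, and 4 of the 7 had 0 counts throughout. *ANXA10* was therefore present in wild-type and *AGO1* knockout cells while most of that list did not pass the filter. *MUC2* had 6, 31 and 8 counts in wild-type, 4, 5 and 9 in *AGO1* and 2, 1 and 2 in *AGO2* knockout cells. *MUC6* had 10, 10 and 5, then 2, 3 and 2, and then 1, 2 and 2 in the same lines, and neither was tested. *HNF4A*, a transcription factor of gut epithelium, was at 9.42, 8.66 and 10.5 CPM in wild-type cells, at 6.71, 5.13 and 5.01 in *AGO2* knockout cells and at 13.1, 15.9 and 13.2 in double knockout cells. It was low in the first of these knockout lines and high in the second, while *ANXA10* was at the floor in both. Its log2 fold changes were -0.76 and 0.56 (adjusted p 0.00272 and 0.00927, the quasi-likelihood test of edgeR, Benjamini-Hochberg adjusted), and the second was not called without double knockout replicate 2 (0.45). *CDX2*, which sets intestinal identity and is also among the epithelial markers, had a log2 fold change of -0.58 in triple knockout cells (adjusted p = 0.00507, the same edgeR test).

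Markers of the cells' state were called in every knockout line, not all in the same direction. The summed level of the 5 markers of a stratified or mesenchymal state (*ZEB1* most abundant, 2 tested, *KRT14* with 3 counts or fewer in every sample) was 12.7, 13.1 and 14.2 CPM in wild-type cells and 9.84, 12.3 and 13.8 in *AGO2* knockout cells. It was 22.4, 26.2 and 21.1 CPM in *AGO1*, 48.1, 50.0 and 54.4 in double and 97.5, 108 and 131 in triple knockout cells. *VIM*, the intermediate filament of mesenchymal cells, had log2 fold changes of 2.52 in double and 3.64 in triple knockout cells (adjusted p 3.94e-06 and 2.51e-08, the quasi-likelihood test of edgeR, Benjamini-Hochberg adjusted). The epithelial adhesion genes *EPCAM* (-0.92 and -1.74) and *CDH1* (-1.66 and -3.51) were called lower in the same lines. In *AGO1* knockout cells, where the 1 call among the 9 annexins was lower, *ZEB1* (0.75) and *VIM* (0.94) were called higher and *CDH1* (-1.15) and *EPCAM* (-0.33) lower. With only the 6 samples compared *VIM*, *CDH1* and *EPCAM* lost these calls. *VIM* also lost its call without wild-type replicate 2 (0.78) or *AGO1* knockout replicate 1 (0.86) or 2 (0.77), and *EPCAM* in 14 of the 15 fits that left out 1 sample, all but that without double knockout replicate 1, at -0.29 to -0.35. *AGO2* knockout cells went the other way for *VIM* (-0.76, called lower) and *EPCAM* (0.32, called higher), and there *KRT20* (1.24) was called higher and *KRT18* (-0.41) lower. These calls were weak. *VIM* lost its call in 9 of the 15 fits, at -0.67 to -0.91, without wild-type replicate 1 or 3, any *AGO2* or double knockout replicate, or triple knockout replicate 2. *EPCAM* lost it in 9, at 0.26 to 0.33, without any wild-type, *AGO2* knockout or triple knockout replicate. *KRT20* lost it without wild-type replicate 2 (0.98). *KRT18* lost it in 6, at -0.37 to -0.46, without wild-type replicate 1 or 2, *AGO1* knockout replicate 2, *AGO2* knockout replicate 1 or 3, or double knockout replicate 3. With only the 6 samples *VIM*, *EPCAM* and *KRT18* lost their calls as well. In the lines with several knockouts the keratin genes were mixed, with *KRT8* (0.76) and *KRT19* (0.64) called higher in double knockout cells, and *KRT8* (0.41) called higher and *KRT20* (-2.28) lower in triple knockout cells. *KRT19* lost its call without wild-type replicate 1 (0.52) or double knockout replicate 2 (0.53) or with only the 6 samples. *KRT8* in triple knockout cells lost it without wild-type replicate 1 (0.39) or 2 (0.33) or triple knockout replicate 2 (0.38) or 3 (0.27), with total counts or with only the 6 samples. Of the 7 epithelial markers tested, 2 were called in *AGO1* knockout cells, both lower, beside 3.17% of all genes higher and 5.50% lower. The counts were 2 higher and 1 lower in *AGO2*, 2 and 2 in double and 1 and 4 in triple knockout cells, beside 8.55% and 10.8%, 8.37% and 8.35%, and 20.3% and 19.8% of all genes. The summed epithelial markers were at 2642, 2540 and 2156 CPM in double knockout cells, above all wild-type samples (1719, 1813 and 1925). They were at 1334, 1433 and 1445 CPM in *AGO1* knockout cells, below all wild-type samples. In *AGO2* knockout cells they were at 1666, 1834 and 1630, and in triple knockout cells at 1634, 1947 and 2122. The part of this state in the annexin levels was not tested.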

How the data were processed

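The authors aligned reads to hg38 and quantified them, with STAR 2.5.3a and Salmon 0.11.0 in the submitters' processing notes, and deposited estimated counts (expected counts) per gene, without scaling for depth. Counts of the 15 RNA samples were rounded, filtered with filterByExpr and scaled by TMM. A mean per line was fitted with edgeR 4.0.16 in R 4.3.3. Contrasts were tested by its quasi-likelihood test, with Benjamini-Hochberg adjustment over 22842 genes, and called at an adjusted p of 0.05 or less. The fit was also run on simulated data, and nothing here is read from that run. Log2 levels of single samples used a prior count of 2.

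The genes named are the 10 annexins, the other annexin genes and pseudogenes, partners, gastric genes, cell markers, *AGO* genes, the 5 protein-coding neighbours of *ANXA10* on each side, and genes with its pattern. The members and lists were chosen with earlier results of these data known. Symbols and positions of 57167 of the 57875 genes were found in GENCODE v44.

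The alternatives were DESeq2 1.42.0, its size factors or total counts, other filters, a block by replicate number, only the 6 samples compared, at least 2-fold, and leaving out each sample. The 8 eCLIP samples were not analysed here.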

Additional observations from a re-analysis of the deposited data

Results flagged for a closer look

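For 4 annexins the change on loss of *AGO2* was called different between the wild-type and the *AGO1* knockout background. The difference itself was tested in edgeR's quasi-likelihood fit, with Benjamini-Hochberg adjustment over all genes tested. This contrast was chosen after the values were seen, so that its p-values serve as a description. The change from *AGO1* to double knockout cells minus that from wild-type to *AGO2* knockout cells was 0.83 on the log2 scale for *ANXA1* (standard error 0.27, adjusted p = 0.0419 by edgeR). For *ANXA2* it was 0.69 (standard error 0.17, adjusted p = 0.0121 by edgeR), for *ANXA4* 0.57 (adjusted p = 0.0237 by edgeR) and for *ANXA6* 0.94 (adjusted p = 0.0207 by edgeR).

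In *ANXA1* the 2 changes were -0.72 in the wild-type background and 0.11 in the *AGO1* knockout background. In *ANXA2*, *ANXA4* and *ANXA6* they were 0.05, -0.07 and 0.05 in the wild-type background and 0.74, 0.50 and 0.99 in the other. The test for *ANXA1* was not passed in 9 of the 15 fits that left out 1 sample, with values from 0.62 (without double knockout replicate 3) to 0.88 (without double knockout replicate 2). The other 7 were those without wild-type replicate 1 (0.80) or 2 (0.68), *AGO1* knockout replicate 1 (0.66), *AGO2* knockout replicate 1 (0.80), 2 (0.85) or 3 (0.86), or triple knockout replicate 2 (0.84), and it was not passed with DESeq2's size factors either. *ANXA4* did not pass without *AGO1* knockout replicate 1 (0.53) or 2 (0.47), *AGO2* knockout replicate 2 (0.49) or 3 (0.57), or double knockout replicate 2 (0.51) or 3 (0.50), or with no filter on low counts. *ANXA6* did not pass without *AGO1* knockout replicate 2 (0.88), *AGO2* knockout replicate 2 (0.82), or double knockout replicate 2 or 3 (0.87 each). The value of *ANXA2* passed in each of those fits. Each background is a single line per genotype, and the *AGO2* knockout files name another mode of quantification, so that these cannot be told apart from the knockouts.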

How the results depend on the processing

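Under the alternatives other than the 2-fold rule, 759 of 796 log2 fold changes of the 9 annexins against wild-type cells stayed on their side of the threshold, 37 lost their call and 0 called values reversed. Of those that were not called, 23 had the other sign. Leaving out 1 sample, annexins called lower ranged from 0 to 1 in *AGO1*, *AGO2* and triple knockout cells, and those called higher were 0 in *AGO1* and *AGO2*, 3 to 5 in double and 4 to 6 in triple knockout cells. From *AGO1* to double knockout cells 5 to 6 were higher, from *AGO2* to double 3 to 5, and from double to triple 3 higher and 1 lower in each fit. Between backgrounds 1 to 4 differed. With only the 6 samples compared, which leaves fewer samples to estimate the spread, the count lower in *AGO1* knockout cells was 0, higher in double knockout cells 2, and lower from double to triple 2. The 1 gene lower in *AGO1* knockout cells was also lost (0 left) with DESeq2's size factors and with at least 10 counts in every sample. With the replicate number as a block, 2 were lower from double to triple knockout cells and 5 differed between backgrounds; with total counts alone 7 did. The causes were not tested.

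With at least 2-fold required as well, which takes away further calls, the counts were 0 lower in *AGO1* and in *AGO2*, 1 higher in double, and 3 higher and 0 lower in triple knockout cells, and 0 in the steps between knockout lines and between backgrounds, since most log2 fold changes are under 1. Set against 10 counts in place of 3, wild-type *ANXA10* was 47.1, 32.3 and 35.3 times the level in *AGO2*, double and triple knockout cells. The genes with its pattern went from 2 to 1 when both limits were raised together, the floor to 10 and the minimum to 100 counts. Over all genes, leaving out 1 sample took *AGO2* knockout cells from 1952 higher and 2456 lower to as few as 389 and 1140, and *AGO1* knockout cells from 725 and 1257 to 389 and 575. Fits of only 6 samples called 219 higher and 439 lower in *AGO1*, 527 and 1340 in *AGO2*, and 927 and 1189 in double knockout cells. Depth limits the size of the *ANXA10* difference, since 3 counts are at most 0.110 CPM.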

Other observations

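*ANXA2R*, which encodes a receptor for ANXA2, is in none of the lists and was chosen after its values were seen. It was at 0.689, 0.382 and 0.512 CPM in wild-type cells, at 0.964, 1.02 and 1.10 in *AGO1* knockout cells and at 0.582, 0.647 and 0.683 in *AGO2* knockout cells. In double knockout cells it was at 0.960, 1.10 and 0.699 CPM. Triple knockout cells had 3.19, 3.54 and 3.35 CPM. All *AGO1* and double knockout samples lay above the wild-type ones as well (log2 fold changes 0.96 and 0.80). *ANXA2R* was thus highest in the triple knockout, with no overlap between triple knockout samples and any other line. The log2 fold change there was 2.66 against wild-type cells (standard error 0.21) and 1.86 against double knockout cells. These values are a description with no test, because of how the gene was chosen.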
